A study of Mus musculus with 6 samples.

Results

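The 40 genes described here encode proteins of the nucleolus and of ribosome assembly. They were picked by name as known targets of MYC and MYCN, by a rule that uses no measured difference. Earlier results of these data were known when they were picked, so the choice was not blind to them. Of the 40 genes, 35 had a probe set annotated to that gene alone and were measured, out of 18417 genes in all. The other 5 are accounted for at the end of the gene-by-gene results. The comparison asked whether their transcripts differed after blockade of the chemokine receptor CXCR4.

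Expression was read in tumours of SK-N-BE(2), an established neuroblastoma line of human origin that carries extra copies of MYCN, grown in the adrenal gland of NSG mice, which lack T, B and natural killer cells. The BL-8040 group was 3 mice given this CXCR4 inhibitor at 400 µg under the skin from day 7 after cell injection, on 14 consecutive days. The control group was 3 mice with the same tumour cells and strain, whose own handling no source used here states. Each tumour was read once on an array of human probe sets. Both groups share a single line and a single host strain, and the labels give no mouse age or sex. Mouse RNA may bind human probes in either group, and its share was not measured.

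Ribosome assembly begins in the nucleolus, where RNA polymerase I copies ribosomal DNA into a long precursor. Small nucleolar RNAs and their proteins guide chemical changes on that precursor, the small subunit processome folds and cuts its first part, and a separate set of factors builds the large subunit. MYC and MYCN are known to raise the transcription of many of these genes, and prominent nucleoli are a known feature of neuroblastoma with MYCN amplification.

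No gene of the nucleolar set passed the test. The limma test, at a Benjamini-Hochberg adjusted p under 0.05, called 0 of the 35, as it called 0% of all 18417 genes, and their adjusted p lay between 0.644 and 0.998. Log2 differences, BL-8040 minus control, ran from -0.21 for RRP9 to 0.18 for NOP16, which are 0.866 and 1.13 times the control level. The median difference was -0.01, against -0.02 over all genes. After BL-8040, 15 of the 35 stood above control and 20 below (42.9% above, against 41.5% of all genes).

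The 95% intervals of all 35 differences lay inside 0.58 log2 units to each side, about 1.5-fold, and at their widest reached -0.44 (RRP9) and 0.38 (NOP16). This was so for 96.4% of all genes too. An unadjusted limma p under 0.05 was reached in the lower direction by 1 of the 35, UTP4 (5.08% of all genes), and in the higher direction by 0 (2.64% of all genes).

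**Figure D1:**
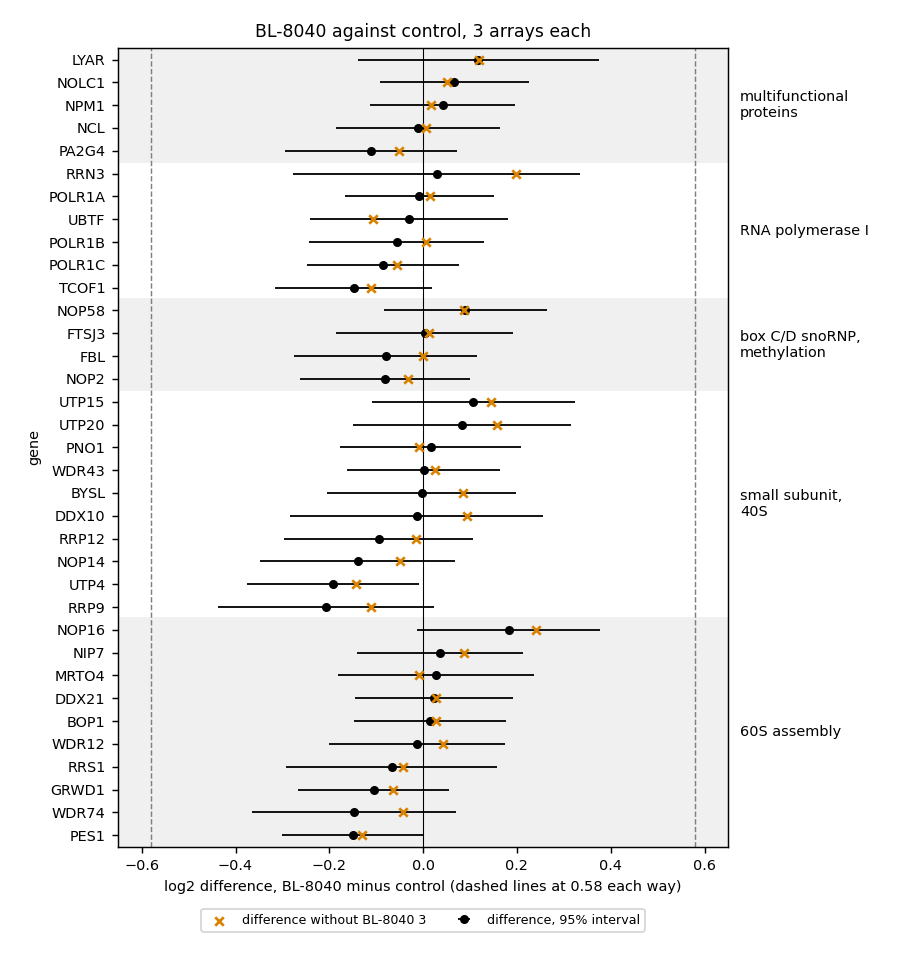
Log2 difference of each of the 35 genes, BL-8040 minus control (x axis), with its 95% interval from limma (black, 3 arrays each) and the difference without BL-8040 replicate 3 (orange cross), ordered by role. Every interval stays inside the dashed lines at 0.58 log2 units to each side, and the interval of UTP4 is the one that does not reach 0.

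The tumours of each group were spread out. Over all genes, BL-8040 replicate 3 stood apart on the first principal component (-22.7, against -0.74 to 10.1 for the other arrays). The deposited log2 values of the arrays had medians between 5.35 and 5.42 over all probe sets. With every gene set to a 6-array mean of 0, the median of the nucleolar set was 0.00, 0.05 and -0.10 in the treated tumours (replicates 1, 2 and 3, here and in every such list of values), and 0.06, 0.03 and -0.07 in the controls. The groups thus overlapped, with 1 low array in each. BL-8040 replicate 3 held the lowest of the 6 values in 17 of the 35 genes and control replicate 3 in 14, which together is 88.6% of the set, against 47.9% of all genes. In 155 other factors of ribosome assembly, described below, this share was 83.2%, so it was not particular to the nucleolar set. Control replicate 1 held the highest value in 13 of the 35 genes.

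**Figure D2:**
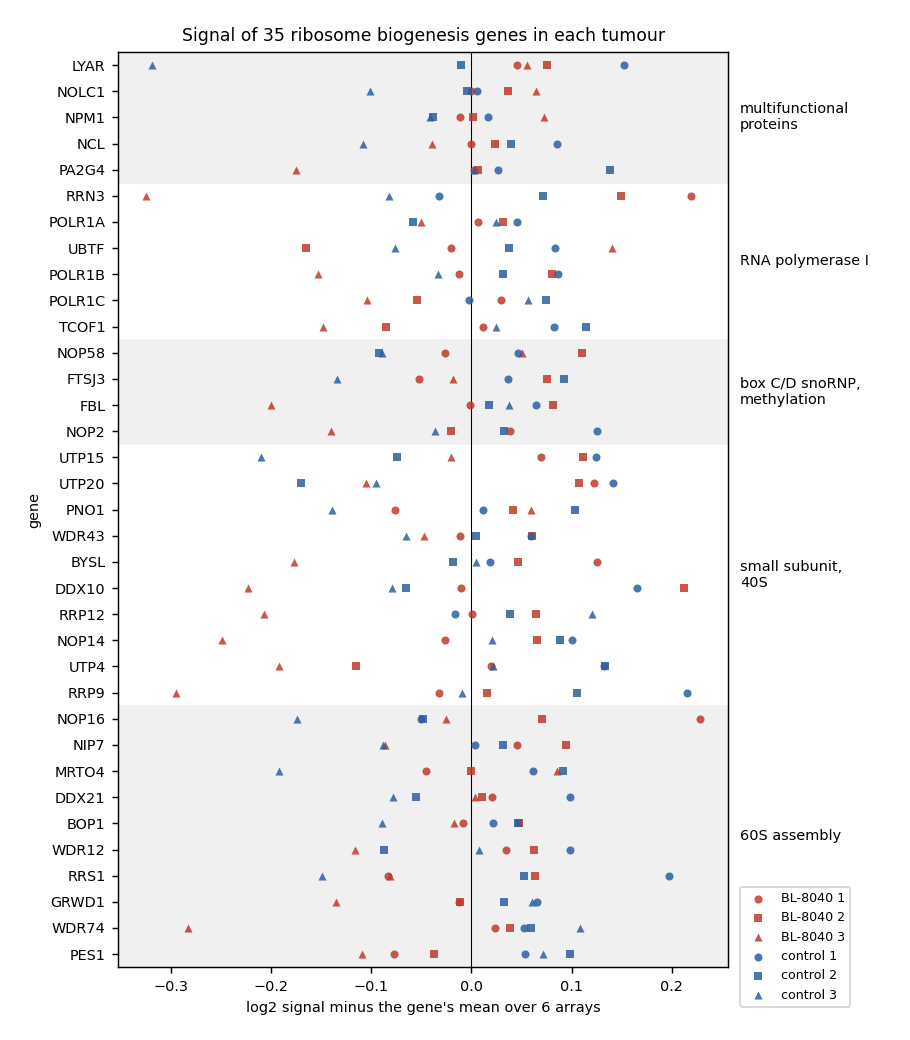
Log2 signal of each gene in each tumour minus that gene's mean over the 6 arrays (x axis), by role; red marks are BL-8040 and blue marks control, with circles, squares and triangles for replicates 1, 2 and 3. The triangles of both colours take most of the lowest places.

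The count of genes above control moved with single arrays. Without BL-8040 replicate 3, 20 of the 35 stood above control, and their median difference was 0.01. Without control replicate 3, 8 did and the median was -0.06, and without control replicate 1, 22 did and the median was 0.02. Over all genes the median was -0.01 without BL-8040 replicate 3, -0.02 without control replicate 3 and -0.03 without control replicate 1. The direction of the set as a whole therefore depended on which tumour was included. Per gene, 17 of the 35 kept the sign of their difference whichever array was left out. The difference exceeded the standard deviation within groups in 13 of the 35 genes (37.1%), against 36.5% of all genes.

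The array also allowed a check of what the tumours were. Of 12 markers of noradrenergic neuroblastoma 11 were measured, 10 of them above the median signal of all genes. All 11 lay below control after BL-8040, with 0 past the test and a median difference of -0.24. Without BL-8040 replicate 3 the marker median was -0.14, and 2 of the 11 stood above control. Their summed linear signal was 7115, 7818 and 5430 after BL-8040, against 8242, 8724 and 6778 in controls. The lowest sum in each group thus fell on the array where the nucleolar set was also low; what part this has in the nucleolar values was not tested. In bulk tumours, fewer cells of a type and less RNA per cell cannot be told apart.

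Of host cell types, adrenal cortex markers were dim (7 measured of 8, all at or below percentile 32.6 of signal), with summed signals of 126 to 141 after BL-8040 and 130 to 132 in controls. All 8 endothelial markers were below the median signal, with sums of 194 to 233 after BL-8040 and 211 to 225 in controls. The 8 myeloid markers summed to 518 to 576 after BL-8040 and 526 to 546 in controls. The 7 fibroblast markers summed to 3998 to 4362 after BL-8040 and 3988 to 4140 in controls, and 6 of them lay above the median signal. These ranges overlapped between groups for each host list. BL-8040 replicate 3 had the highest sum of all tumours for the endothelial (233), myeloid (576) and adrenal cortex markers (141). For fibroblast markers its sum was 4311, behind BL-8040 replicate 1 (4362). It was also the tumour with the lowest noradrenergic sum (5430). What part this has in the nucleolar values was not tested, and the share of mouse RNA in the host lists was not measured.

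Among the multifunctional nucleolar proteins, NCL encodes nucleolin, the abundant RNA-binding protein of the nucleolus. Its log2 signal was 10.09, 10.11 and 10.05 after BL-8040, against 10.18, 10.13 and 9.98 in controls. The treated values lay within the range of the controls, and the difference was -0.01 (95% interval -0.19 to 0.16, limma adjusted p = 0.972). NPM1 encodes nucleophosmin, a chaperone of histones and ribosomal particles. It read 11.36, 11.38 and 11.45 after BL-8040, against 11.39, 11.34 and 11.33 in controls, a difference of 0.04 (95% interval -0.11 to 0.20, adjusted p = 0.875). The highest NPM1 value belonged to BL-8040 replicate 3, the array where most of the set was low. Of 4 NPM1 probe sets the 3 bright ones differed by 0.02 to 0.04, and the dim one by -0.05.

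NOLC1, which encodes a chaperone of small nucleolar ribonucleoproteins, read 9.73, 9.77 and 9.80 after BL-8040, against 9.74, 9.73 and 9.63 in controls. Its groups overlapped, and its difference was 0.07 ± 0.07 (SE). LYAR, a nucleolar zinc finger protein, read 6.58, 6.61 and 6.59 after BL-8040, against 6.69, 6.52 and 6.22 in controls. The 3 treated tumours were close to each other, while control replicate 3 alone was low, and without it the LYAR difference changed from 0.12 to -0.01. PA2G4, a growth regulator that binds ribosomal particles, differed by -0.11 ± 0.08 (SE).

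For transcription by RNA polymerase I, 6 genes were measured, 1 above and 5 below control, with a median difference of -0.04. TCOF1 encodes treacle, a nucleolar scaffold that works with the polymerase. It read 7.66, 7.56 and 7.50 after BL-8040, against 7.73, 7.76 and 7.67 in controls. All treated values lay below all controls, by a narrow margin, and the difference was -0.15 ± 0.07 (SE, limma adjusted p = 0.652). POLR1A and POLR1B, the catalytic core of the enzyme, differed by -0.01 and -0.06, and POLR1C, a subunit shared with RNA polymerase III, by -0.09.

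Of the factors that bring the polymerase to its promoter, RRN3, the initiation factor TIF-IA, read 7.79, 7.72 and 7.25 after BL-8040, against 7.54, 7.65 and 7.49 in controls. BL-8040 replicate 3 was the lowest of all tumours and the other treated tumours were the highest, so that the RRN3 difference was 0.03 with all arrays and 0.20 without that tumour. Its within-group standard deviation of 0.22 was the widest of the 35. RRN3 has near-identical pseudogene copies, and 3 other probe sets annotated to RRN3 together with those copies differed by 0.02 to 0.11, so its own level is uncertain. UBTF, the upstream binding factor of ribosomal DNA, went the other way in that tumour, at 8.83, 8.69 and 8.99 after BL-8040, against 8.94, 8.89 and 8.78 in controls. The UBTF difference was -0.03 with all arrays and -0.11 without BL-8040 replicate 3.

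A small set of proteins forms the box C/D particle that methylates ribosomal RNA. FBL, the methyltransferase fibrillarin, read 9.97, 10.05 and 9.77 after BL-8040, against 10.03, 9.99 and 10.01 in controls. The controls were close to each other and the FBL difference of -0.08 (95% interval -0.27 to 0.12, adjusted p = 0.809) was 0.00 without BL-8040 replicate 3. NOP58, a scaffold of the same particle, read 9.14, 9.27 and 9.21 after BL-8040, against 9.21, 9.07 and 9.07 in controls. Its groups overlapped at control replicate 1, and the difference was 0.09 ± 0.08 (SE). NOP2, which methylates a cytosine of the large ribosomal RNA, differed by -0.08. FTSJ3, a methyltransferase of the precursor, read 7.07, 7.20 and 7.10 after BL-8040, against 7.16, 7.21 and 6.99 in controls. Its treated values lay within the range of the controls, and its difference of 0.003 was among the 3 nearest to 0.

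The small subunit processome and the later 40S factors had 10 measured genes, 4 above and 6 below control. UTP4 belongs to the subcomplex that first binds the precursor. It read 10.41, 10.27 and 10.20 after BL-8040, against 10.52, 10.52 and 10.41 in controls. The treated values all lay below the controls, although BL-8040 replicate 1 and control replicate 3 were almost level. The UTP4 difference of -0.19 (95% interval -0.37 to -0.01) had an adjusted p of 0.644 in limma and was -0.14 without BL-8040 replicate 3. Its exact two-sided permutation p was 0.1, below which a permutation test of 3 against 3 arrays cannot go.

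UTP15 and WDR43 belong to the same early subcomplex as UTP4 and did not stand lower with it. UTP15 read 6.77, 6.81 and 6.68 after BL-8040, against 6.83, 6.63 and 6.49 in controls, a difference of 0.11 ± 0.10 (SE). WDR43 read 9.21, 9.28 and 9.17 after BL-8040, against 9.28, 9.23 and 9.16 in controls, and its difference of 0.001 was the nearest to 0 of the set. The differences between these genes were not tested against each other.

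RRP9, a protein specific to the U3 particle, read 7.64, 7.69 and 7.38 after BL-8040, against 7.89, 7.78 and 7.66 in controls. It had the largest difference of the set, -0.21 ± 0.10 (SE, adjusted p = 0.649), but BL-8040 replicate 2 lay above control replicate 3, and without BL-8040 replicate 3 the RRP9 difference was -0.11. NOP14, a processome scaffold, read 8.72, 8.81 and 8.50 after BL-8040, against 8.85, 8.84 and 8.77 in controls. Its difference was -0.14, and -0.05 without BL-8040 replicate 3. UTP20, a very large scaffold protein, read 7.92, 7.90 and 7.69 after BL-8040, against 7.93, 7.62 and 7.70 in controls, and overlapped fully.

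BYSL, the 40S factor bystin, read 8.37, 8.30 and 8.07 after BL-8040, against 8.27, 8.23 and 8.25 in controls. Its treated tumours lay on both sides of the controls, and the difference was -0.003. The RNA helicase gene DDX10 differed by -0.01, PNO1, which binds late 40S precursors, by 0.02, and RRP12, an export factor of the small subunit, by -0.09.

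For 60S assembly 10 genes were measured, 5 above and 5 below control. PES1, BOP1 and WDR12 encode the 3 proteins of the PeBoW complex. PES1 read 7.88, 7.92 and 7.85 after BL-8040, against 8.01, 8.06 and 8.03 in controls. Both groups of PES1 were tight, with the smallest within-group standard deviation of the set (0.03), and they did not overlap. The PES1 difference was -0.15 ± 0.07 (SE), or 0.902 times the control level, with a limma adjusted p of 0.646, and it stayed between -0.17 and -0.13 whichever array was left out. Its partners BOP1 and WDR12 differed by 0.01 and -0.01, and both overlapped between groups. A second BOP1 probe set differed by -0.02.

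NOP16, a nucleolar factor of the large subunit, read 7.24, 7.08 and 6.99 after BL-8040, against 6.96, 6.97 and 6.84 in controls. The treated tumours all lay above the controls, by 0.02 units between the nearest arrays. The NOP16 difference of 0.18 ± 0.09 (SE, adjusted p = 0.646) became 0.24 when BL-8040 replicate 3 was left out, and 0.11 when replicate 1 of that group was. WDR74, a repeat protein of early 60S particles, read 9.87, 9.89 and 9.57 after BL-8040, against 9.90, 9.91 and 9.96 in controls. It was below all controls in each treated tumour, but its difference of -0.15 was -0.04 without BL-8040 replicate 3.

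Of the other 60S genes, GRWD1, a histone-binding protein of the nucleolus, differed by -0.11 with no overlap between groups, and by -0.06 without BL-8040 replicate 3. The helicase gene DDX21, which links polymerase I with precursor processing, differed by 0.02, MRTO4, which resembles the stalk protein of the large subunit, by 0.03, the processing factor gene NIP7 by 0.04 and RRS1, whose yeast counterpart helps to place the 5S particle, by -0.07. In all, 1 of the 35 genes (NOP16, or 2.86%) had treated values wholly above the controls, against 4.93% of all genes. Treated values lay wholly below the controls in 5 (UTP4, PES1, TCOF1, WDR74 and GRWD1, or 14.3%), against 9.05% of all genes, and without BL-8040 replicate 3 the differences of these 5 lay between -0.14 and -0.04.

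Not part of those counts are NOP56 and PPAN, whose probe sets carry several gene symbols. The probe set shared by NOP56 and SNORD56 differed by -0.02, and that of PPAN, P2RY11 and their read-through transcript by -0.10. GNL3, DDX18 and EBNA1BP2 had no named probe set and were not analysed here.

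The low values of BL-8040 replicate 3 and of control replicate 3 fell partly on the same genes and partly on different ones. BL-8040 replicate 3 was the lowest of the treated tumours in 26 of the 35 genes (74.3%, against 45.5% of all genes). Control replicate 3 was the lowest of the controls in 24 (68.6%, against 35.7%). Both counts held 16 of the 35 genes, against 3266 of all 18417 genes. In the 155 other factors of ribosome assembly, BL-8040 replicate 3 was the lowest treated tumour in 79.4%. Control replicate 3 was the lowest control in 52.3% of those factors. Against the mean of the other 2 treated tumours, BL-8040 replicate 3 was lower by at least 0.30 log2 units in RRN3 (-0.51), DDX10 (-0.32) and WDR74 (-0.31). LYAR (-0.39) had the widest gap of control replicate 3 to the mean of the other 2 controls, followed by RRS1 and MRTO4 (-0.27 each). These genes were named here because of these gaps. UBTF (0.23), MRTO4 (0.11), PNO1 and NPM1 (0.08 each) and NOLC1 (0.05) were instead higher in BL-8040 replicate 3 than in the other treated tumours.

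**Figure D3:**
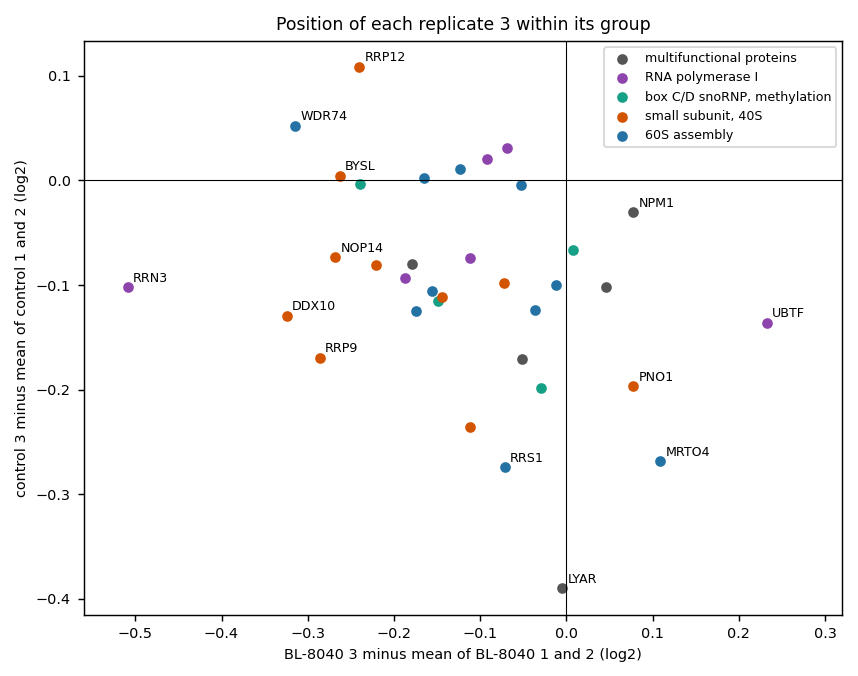
Each point is 1 of the 35 genes, with the gap of BL-8040 replicate 3 to the mean of the other 2 treated tumours on the x axis and that of control replicate 3 to the mean of the other 2 controls on the y axis (log2 units), coloured by role. Most points lie below and left of 0, with RRN3 at the far left (-0.51), LYAR at the bottom (-0.39) and UBTF at the right (0.23).

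The rest of the ribosome assembly pathway gave no gene past the test either. Of 155 other measured factors, from lists made by role, 56 stood above and 99 below control, with 0 past the test and a median difference of -0.03 (0.01 without BL-8040 replicate 3). Their array medians were 0.03, 0.03 and -0.10 after BL-8040, against 0.05, 0.02 and -0.02 in controls. Among the lists that make up these 155, other factors of the small subunit had the lowest median, -0.05, with 38 of 45 below control. Without BL-8040 replicate 3, 20 of these 45 stood above control and the median was -0.01.

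NOB1, the nuclease that makes the last cut of the small ribosomal RNA, differed by -0.36 (95% interval -0.63 to -0.09, limma adjusted p = 0.644) and by -0.22 without BL-8040 replicate 3. RCL1 of the same list differed by -0.21. Among the other 60S factors, 22 of 47 stood above control, and the smallest unadjusted p belonged to RSL1D1 (-0.20) and NLE1 (-0.21). The other 16 genes of the RNA polymerase I list, 5 above control, included POLR1G at -0.20. In the RNA polymerase III list 10 of 20 stood above, with GTF3C6 at 0.15 and GTF3C5 at -0.19. NOP10, a core protein of the particles that make pseudouridine, differed by 0.16. The exosome subunit genes EXOSC8 and EXOSC5 differed by 0.20 and -0.19. Treated values lay wholly above the controls in NOP10, EXOSC8 and GTF3C6, and wholly below in NOB1, RSL1D1, POLR1G and GTF3C5. Over the 155 factors, 7 (4.52%) lay wholly above and 13 (8.39%) wholly below, against 4.93% and 9.05% of all genes. None of these factors passed the test.

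Of 78 cytosolic ribosomal protein genes, which encode proteins of the finished ribosome, 58 were measured. Below control were 51 of the 58, against 10781 of all 18417 genes, with 0 past the test and a median difference of -0.08. Their array medians were 0.02, 0.00 and -0.14 after BL-8040, against 0.03, 0.07 and 0.02 in controls, with BL-8040 replicate 3 far the lowest. Without it the ribosomal median was -0.03, and 16 of the 58 stood above control, against 8359 of all 18417 genes. MYCN itself read 12.26, 12.34 and 12.10 after BL-8040, against 12.22, 12.17 and 12.22 in controls, a difference of 0.03 (95% interval -0.15 to 0.22) that was 0.10 without BL-8040 replicate 3. Its lowest value also belonged to that tumour. In the list of MYC family genes and their partners, 6 of 11 stood above control, 0 passed the test and the largest difference was that of the repressor MNT (-0.21).

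**Figure D4:**
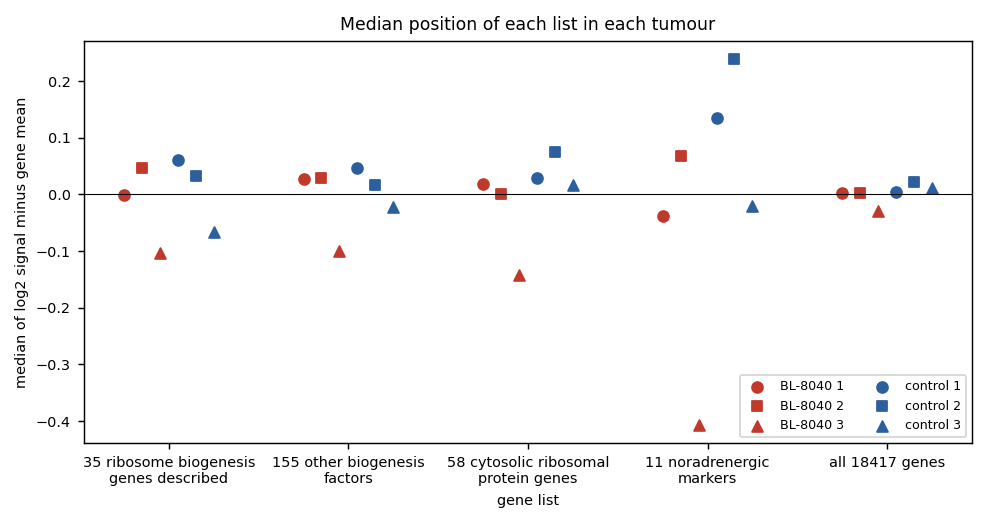
Median over each gene list of the log2 signal minus the gene's mean over the 6 arrays (y axis), for each tumour; red marks are BL-8040, blue marks control, with circles, squares and triangles for replicates 1, 2 and 3. BL-8040 replicate 3 is the lowest tumour in each of the 5 lists plotted here, at -0.10 for the nucleolar set and -0.14 for ribosomal proteins.

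Several of the nucleolar genes carry small nucleolar RNA genes in their introns, and 7 of 18 such RNAs had a probe set of their own, which can also read unspliced host RNA. SNORD20, in an intron of NCL, read 2.72, 2.97 and 3.11 after BL-8040, against 2.39, 2.53 and 2.30 in controls, at percentile 4.25 of signal, near the dimmest on the array. All treated values lay above the controls, and the SNORD20 difference of 0.53 (95% interval 0.28 to 0.77) had a limma adjusted p of 0.644. SNORA75, also in NCL, read 6.88, 7.13 and 6.43 after BL-8040, against 6.50, 6.37 and 6.40 in controls, a difference of 0.40 with overlap between groups. SNORD82, the third NCL intron gene, differed by 0.14, while NCL differed by -0.01. SNORD53, in an intron of WDR43, read 7.22, 7.24 and 7.19 after BL-8040, against 7.55, 7.25 and 7.51 in controls, a difference of -0.22 beside 0.001 for WDR43. These RNAs had the smallest unadjusted limma p of their list. The rest of the 7, SNORD57 (0.20 ± 0.19, SE), SNORD105 (0.06) and SNORA51 (0.04), overlapped between groups. None of the 7 RNAs passed the test, and their differences from the host genes were not tested.

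**Figure D5:**
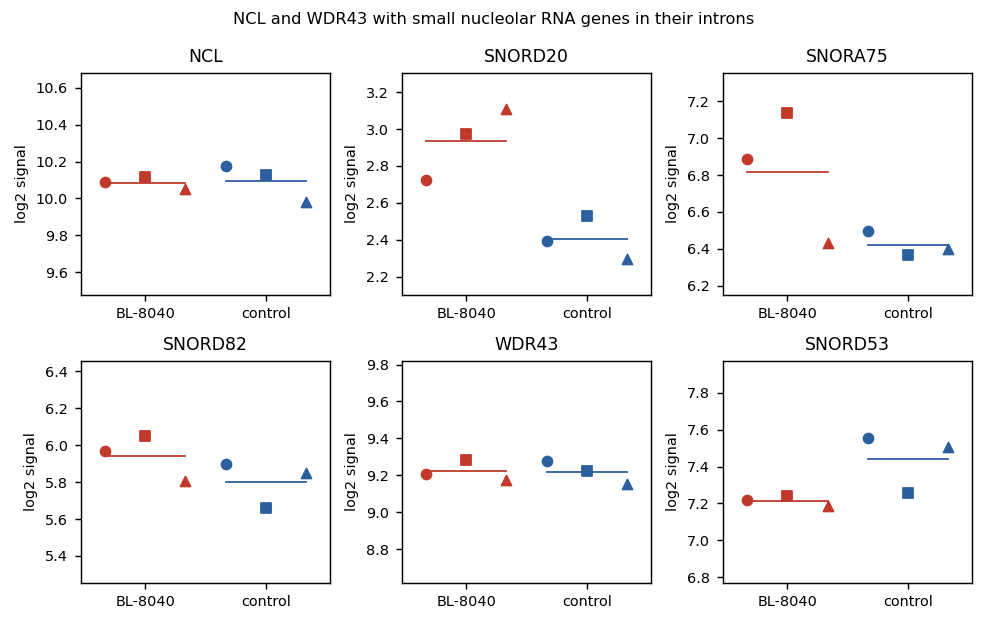
Log2 signal of NCL with 3 small nucleolar RNA genes of its introns, and of WDR43 with 1, in BL-8040 tumours (red) and controls (blue); circles, squares and triangles are replicates 1, 2 and 3, lines are group means, and every panel spans the same range of log2 units. SNORD20 is higher in all 3 treated tumours and SNORD53 lower in all 3, with NCL and WDR43 level.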

How the data were processed

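The authors deposited 1 table of log2 values per probe set with a column for each of the 6 arrays. The scale was read from the values (1.08 to 13.2). The submitters' processing notes name Partek 6.6; the background correction and normalization were not given in the sources used, and no detection calls were at hand. From the labels' protocols, 200 ng of RNA per tumour was labelled. Symbols came from the platform annotation; 1 probe set per gene was kept, the brightest over all arrays among those with a single symbol.

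Groups were compared with lmFit and eBayes of limma 3.58.1 (R 4.3.3) over all 18417 genes, two-sided, with Benjamini-Hochberg adjustment and no replicate block. SE is the moderated standard error. The fit was tested on simulated data. Precision is limited by the number of arrays. P-values weigh the group difference against the spread between tumours of a group, moderated towards the spread of all genes. A gene with tight groups, such as PES1, thus gets a larger SE than its own spread would give.

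The gene set and lists were chosen with earlier results of these data known. Values in every array are given for NCL, NPM1 and FBL, the 6 genes per direction with the smallest p, the extremes and the 3 differences nearest to 0. They are also given for RRN3 and UBTF, which that rule does not name. The other lists name up to 2 genes, except the small nucleolar RNAs, of which more are named. A planned search of promoters for a MYC binding motif was not run, because the sequences at hand were of the mouse host.

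For same-numbered tumours, deviations from group means correlated at -0.04, 0.02 and 0.08 for numbers 1, 2 and 3. Between differently numbered tumours the correlations ran from -0.09 to 0.07. The labels name no pairing, and such correlations over all genes cannot show whether same-numbered tumours shared a batch. Alternatives were filters on dim genes, the mean of probe sets, another normalization or moderation, array weights, the replicate block, a looser threshold and each array left out in turn.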

Additional observations from a re-analysis of the deposited data

How the results depend on the processing

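No nucleolar gene and no gene over the whole array passed the test under any alternative run: quantile normalization or median centring, filters on dim genes at the median signal or at log2 6, averaged probe sets, weighted arrays, robust moderation with a variance trend, an adjusted p under 0.1, or 1 array left out. The count at an unadjusted limma p under 0.05 over all genes was 1422, and between 905 and 1838 with 1 array left out. With the replicate number as a block, 0 genes passed, the smallest adjusted p was 0.443, and the median difference of the set was again -0.01; the block changed no call. The median difference lay between -0.06 and 0.02 with 1 array left out, and between -0.02 and -0.01 under the other alternatives, so its sign was not settled. The number of nucleolar genes above control was 15, between 8 and 22 with 1 array left out, and between 13 and 16 otherwise; it was 8 without control replicate 3. Adding NOP56 and PPAN left 15 of 37 above control. Because no detection call was available, dim signals such as SNORD20 have no stated background.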
